A study of Mus musculus with 6 samples.

Results

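Transforming growth factor beta (TGF-beta) signalling was examined through 10 genes that carry or restrain it: the ligand gene Tgfb1, the receptors Tgfbr1 and Tgfbr2, the signal carriers Smad2 and Smad3, and the inhibitors Smad6, Smad7, Bambi, Skil and Tgif1. The genes were taken by name, as those with an array probe set whose annotation names that gene alone. All 10 were found, with 16 of the 20380 probe sets that name 1 gene, among 12393 genes in all. The samples were whole skin of C57BL/6 mice with a subcutaneous pump that ran for 7 days, on 6 one-colour Affymetrix arrays of total RNA. Skin at the pump outlet was taken from 1 mouse given PBS (PBS local), 1 given IL-13, 1 given TSLP and 2 given TGF-beta, called mouse 1 and mouse 2. The sixth array held abdominal skin far from the outlet under PBS (PBS distal). All 6 pieces came from animals with an implanted pump, so no array shows skin of an animal without one. The labels give neither the dose, the TGF-beta isoform nor the age of the mice, and they do not say whether both PBS pieces came from 1 animal.

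TGF-beta binds the type II receptor TGFBR2, which activates the type I receptor TGFBR1, and this in turn phosphorylates SMAD2 and SMAD3. These enter the nucleus with SMAD4 and switch on target genes, among which are several inhibitors of the same pathway. In skin the pathway holds back keratinocyte growth, drives matrix production by fibroblasts and takes part in the cycle of the hair follicle. The delivered agent was a protein, so the level of Tgfb1 mRNA does not check the treatment.

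Values are MAS5 signals in linear units unless a log2 scale is named. Differences are on the scale log2(signal + 27.4), which understates changes of dim genes, and a signal of 165, the median of all values, was the filter under which a gene counts as dim. The markers of the labelled tissue were present, with 5 of 6 keratinocyte and 6 of 6 fibroblast markers at or above the filter on all arrays, and so were 6 of 6 skeletal muscle markers. Array medians ran from 160 to 171. Of the 10 genes, 6 were at or above the filter on all arrays, Smad6 and Bambi on 1 and 2 arrays, and Tgfb1 and Smad3 on none. The other 6 probe sets of these genes (for Tgfbr1, Tgfbr2, Smad3 and Skil) were below it everywhere, with signals of at most 70.7, and enter only where a mean over a gene's probe sets is named. In whole skin, a change in the number of cells of a type and a change of RNA within each cell cannot be told apart.

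**Figure D1:**
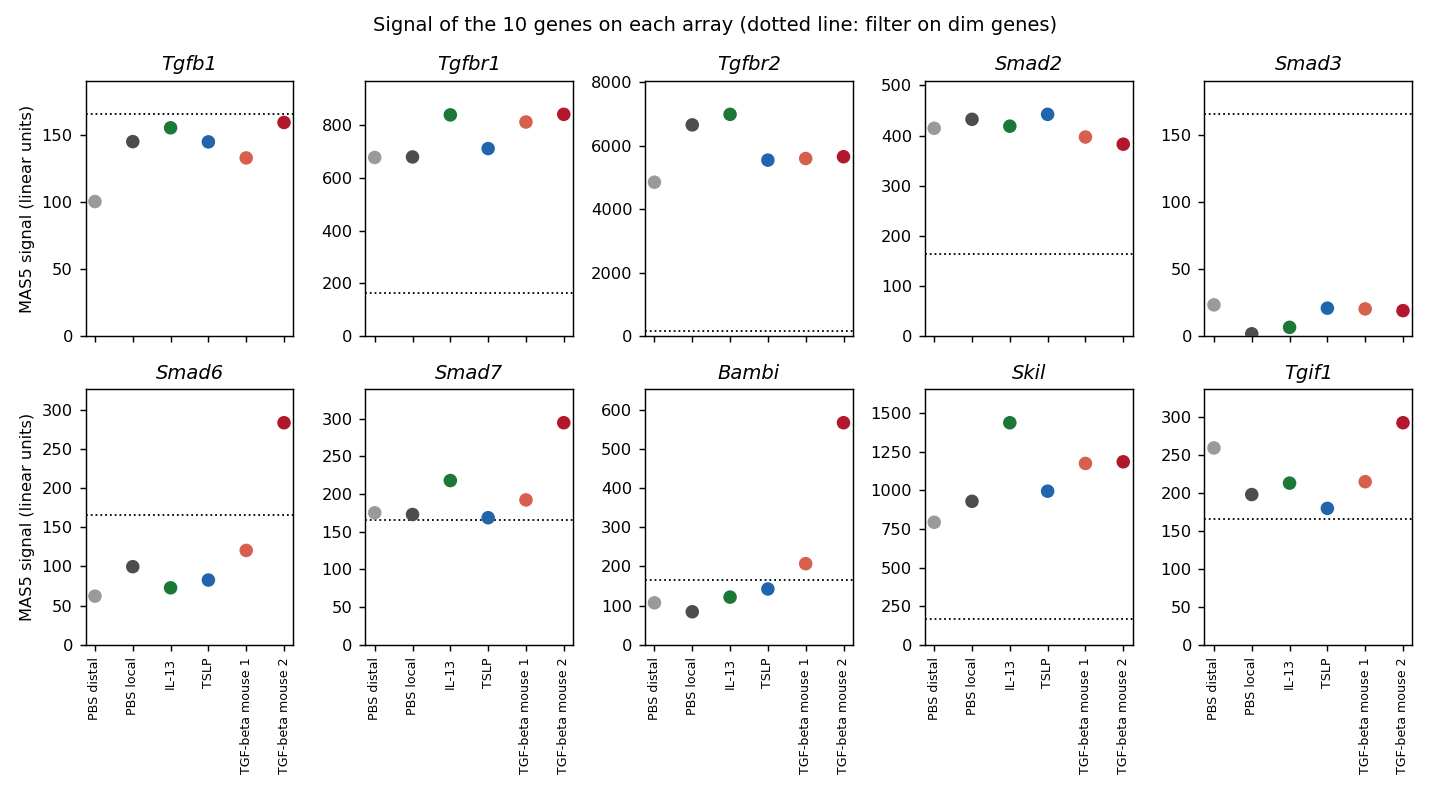
MAS5 signal in linear units (y axis, from 0, with its own scale in each panel) of the 10 genes on the 6 arrays (x axis), 1 point an array. Bambi, Smad6, Smad7, Tgif1, Tgfb1 and, narrowly, Tgfbr1 have their highest point in TGF-beta mouse 2, and Skil and Tgfbr2 under IL-13. Smad3 lies far below the dotted line at 165 everywhere.

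Bambi had the widest spread of the 10 genes. It encodes a decoy receptor that resembles a type I receptor, lacks its kinase and blocks the signal at the membrane. Its signal was 84.3 in PBS local, 107 in PBS distal, 122 under IL-13, 142 under TSLP, 207 in TGF-beta mouse 1 and 567 in mouse 2. Both TGF-beta mice thus lay above the other 4 arrays, the lower mouse by 0.46 on the log2 scale. All 4 arrays without TGF-beta were under the filter, so Bambi was tested only because it was high under TGF-beta. The distance from PBS local came to 1.07 for mouse 1 and to 2.41 for mouse 2. The mean difference of 1.74 had a standard error of 0.64 and a 95% interval from -0.02 to 3.50 in limma (unadjusted p = 0.0518, adjusted p = 0.864). At an offset of 165 the difference in mouse 1 was 0.58, and against PBS distal it was 0.80, both under 2-fold.

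Of the 10, Bambi alone exceeded PBS local 2-fold in each TGF-beta mouse, and none was 2-fold lower in each. Of the 7741 genes tested, 0.181% were 2-fold higher in both mice and 0.155% 2-fold lower. No gene of the whole table passed limma's adjusted threshold for TGF-beta against PBS local, that is 0% of those tested, and 355 genes (4.59%) had an unadjusted p under 0.05. None of the 8 tested among the 10 genes did. Smad6 shared with Bambi the position of both mice above the other 4 arrays, which 6.07% of 7945 genes also held. Both genes reached the filter only on TGF-beta arrays, so neither count is read against these shares. Among the 6 genes above the filter on all arrays, none was 2-fold apart in both mice and none had both mice above the other 4 arrays.

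Smad6 is an inhibitory SMAD that acts mainly on the bone morphogenetic protein (BMP) branch of the family. Its signal was 99.6 in PBS local, 62.1 in PBS distal, 72.7 under IL-13, 82.6 under TSLP, 120 in TGF-beta mouse 1 and 283 in mouse 2. Only mouse 2 exceeded the filter, and mouse 1 lay 0.22 above PBS local, the next array on the log2 scale. The difference from PBS local was 0.22 in mouse 1 and 1.29 in mouse 2, with a mean of 0.75 ± 0.67 (SE, adjusted p = 0.864, limma). The spread between the mice was thus as wide as the mean difference itself. IL-13 and TSLP skin lay at -0.34 and -0.21 from PBS local, and distal skin at -0.51.

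The Smad6 promoter is shown because it holds the palindromic SMAD-binding element GTCTAGAC, in capitals, across the transcript start from which the RefSeq window was measured, slightly downstream of the first base of the annotated gene (chr9:64022010-64022309, minus strand, GRCm38.p6, sequence from RefSeq, from 250 bases before the start to 50 after it).
Smad6 promoter: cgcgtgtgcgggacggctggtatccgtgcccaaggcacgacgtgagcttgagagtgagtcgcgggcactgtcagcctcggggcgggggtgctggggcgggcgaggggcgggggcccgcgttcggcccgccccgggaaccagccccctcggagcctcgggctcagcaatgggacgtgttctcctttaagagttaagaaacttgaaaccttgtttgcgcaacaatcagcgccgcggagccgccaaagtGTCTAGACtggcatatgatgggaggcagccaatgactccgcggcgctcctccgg
The element was searched as GTCTAGAC, which reads the same on both strands, and begins at position -4 from the start. It occurred in 70 of 32851 RefSeq promoter windows of 300 bases (0.213%). The shorter SMAD motif CAGAC, searched on both strands, was found in 49.6% of the windows and not in this one. It cannot lie inside the longer element. Promoters were at hand for 6 of the 10 genes, 11 windows in all, and Smad6 alone of these held GTCTAGAC. None was at hand for Smad2, Smad7, Bambi and Skil, so whether these hold the element was not examined. A match is a run of letters and says nothing of whether a SMAD is bound in these samples.

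Smad7, the inhibitory SMAD that blocks the type I receptor of TGF-beta and brings a ubiquitin ligase to it, was measured above the filter on all arrays. Its signal was 173 in PBS local, 175 in PBS distal, 218 under IL-13, 169 under TSLP, 192 in TGF-beta mouse 1 and 295 in mouse 2. Mouse 2 was highest, while mouse 1 lay below the IL-13 array, so TGF-beta and the other arrays overlapped. The differences from PBS local were 0.13 and 0.69 in the mice (mean 0.41 ± 0.34, SE; adjusted p = 0.864, limma) and 0.29 under IL-13.

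Tgif1 encodes a homeodomain corepressor that joins SMAD2 in the nucleus. Its signal was 198 in PBS local, 259 in PBS distal, 213 under IL-13, 179 under TSLP, 215 in TGF-beta mouse 1 and 292 in mouse 2. The distal PBS array lay between the TGF-beta mice, so the groups overlapped here too. Mouse 1 differed from PBS local by 0.10 and mouse 2 by 0.51.

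**Figure D2:**
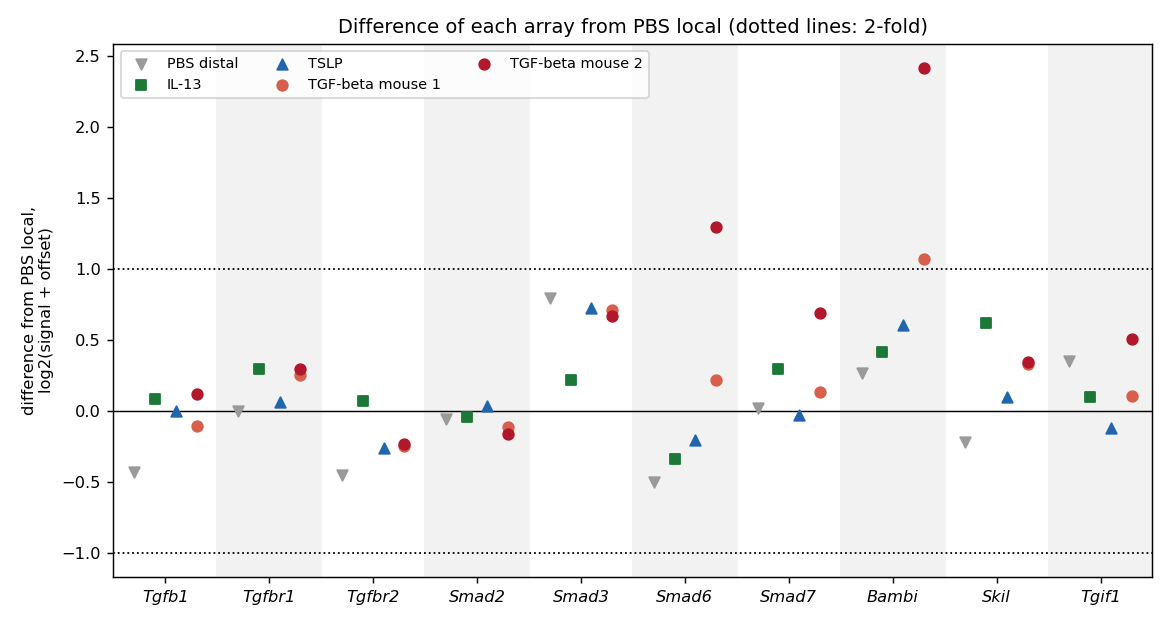
Difference of each array from PBS local on the scale log2(signal + 27.4) (y axis) for the 10 genes (x axis), with 1 point an array and dotted lines at 2-fold. Bambi has both TGF-beta points above the upper line, at 1.07 and 2.41, and Smad6 only that of mouse 2.

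Among the inhibitors, Skil alone had like values in both TGF-beta mice. The excess of mouse 2 over mouse 1 was 1.34 for Bambi, 1.07 for Smad6, 0.55 for Smad7 and 0.40 for Tgif1, and 0.01 for Skil. Bambi and Smad6 passed 2-fold between the mice, as did 1.75% of 7597 genes. Smad6 reached the filter in mouse 2 alone, so its count cannot be read against that share, and none of the 6 genes above the filter on all arrays passed 2-fold. Of the 6 genes above the filter on all arrays, 3 (Tgfbr1, Smad7 and Tgif1) were highest in mouse 2, against 17.7% of all 6684 such genes. For Tgfbr1 this was nearly a tie, with 839 in mouse 2 and 837 under IL-13.

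Mouse 2 also stood apart in hair follicle transcripts. Summed over 9 follicle markers, the signal was 41165 in mouse 2, 314 in mouse 1, 256 in PBS local, 259 under TSLP, 1538 in PBS distal and 2709 under IL-13. Krt25, a keratin of the inner root sheath, had a distance from PBS local of 0.53 in mouse 1 but 8.37 in mouse 2. The homeobox gene Msx2, active in the hair matrix, was at 0.06 and 2.85. The follicle marker Lef1 was below the filter on all arrays. The summed signal of 6 keratinocyte markers was 49261 in mouse 1 and 41315 in mouse 2, although Krt5 alone was 6659 and 6847. A lower sum in mouse 2 was not particular to keratinocytes. Fibroblast markers summed to 72350 in mouse 1 and 59806 in mouse 2, skeletal muscle markers to 79244 and 58500, and endothelial markers to 3394 and 2106. The part of follicle content in the higher Bambi, Smad6, Smad7 and Tgif1 of mouse 2 was not tested. Follicle markers were also above PBS local under IL-13 and in distal skin. There, in that order, Bambi was at 0.42 and 0.27, Smad6 at -0.34 and -0.51, Smad7 at 0.29 and 0.02, and Tgif1 at 0.09 and 0.35.

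**Figure D3:**
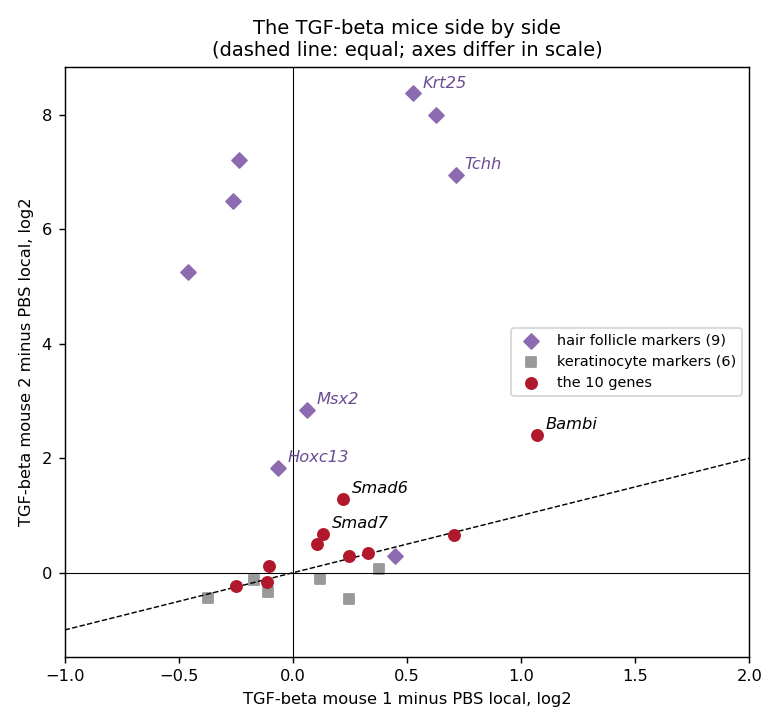
Difference from PBS local in TGF-beta mouse 1 (x axis) and mouse 2 (y axis), log2 scale with unequal axes, for the 10 genes (circles), 9 hair follicle markers (diamonds) and 6 keratinocyte markers (squares). All 9 follicle markers lie within 2-fold of PBS local in mouse 1, while 8 of them exceed 2-fold in mouse 2, up to 8.37, and Bambi is the gene of the 10 farthest right, at 1.07.

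Skil, which encodes the SMAD corepressor SnoN and is itself a TGF-beta target, gave nearly equal values in both TGF-beta mice. Its signal was 928 in PBS local, 793 in PBS distal, 1437 under IL-13, 994 under TSLP, and 1174 and 1184 in the TGF-beta mice. The IL-13 array was the highest and distal skin the lowest, with TGF-beta between IL-13 and TSLP. The difference from PBS local was 0.33 and 0.34 in the mice, with a mean of 0.34 and a 95% interval from -0.10 to 0.77 (adjusted p = 0.864, limma). With the mean of its 2 probe sets in place of the brighter one, that mean was 0.13. Under IL-13 the difference was 0.62, the largest of the 10 genes on that array. The IL-13 group has 1 array, so this difference has no replicate check. The signals of 8 leukocyte markers summed to 40335 under IL-13, 38329 and 34079 in the TGF-beta mice, 30833 under TSLP, 29953 in PBS local and 22421 in distal skin. Not every marker followed the order of the sum. Ptprc was 3872 under TSLP, 3517 under IL-13, 3409 in PBS local, and 2932 and 2603 in the TGF-beta mice. Of the 7 markers tested, 4 were above PBS local under TGF-beta and 3 below, while under IL-13 all 7 were above. The part of leukocyte content in the order of Skil was not tested.

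The receptors moved little and not together. Tgfbr1, the type I receptor kinase, had signals of 678 in PBS local, 676 in PBS distal, 837 under IL-13, 710 under TSLP, and 810 and 839 in the TGF-beta mice. The TGF-beta mice and IL-13 formed an upper group, within which IL-13 differed from mouse 1 by 0.05, the same as the gap between the mice. The mean difference of TGF-beta from PBS local was 0.27, with a 95% interval from -0.15 to 0.69. With the mean of its 3 probe sets it was 0.06.

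Tgfbr2, the ligand-binding type II receptor, had signals of 6660 in PBS local, 4855 in PBS distal, 6992 under IL-13, 5551 under TSLP, and 5601 and 5657 in the TGF-beta mice. PBS local and IL-13 were high, TSLP and TGF-beta lay together below them, and distal skin was lowest. TGF-beta lay at -0.24 from PBS local (95% interval -0.62 to 0.14; adjusted p = 0.864, limma) and TSLP at -0.26. Distal skin lay at -0.45, a difference between single arrays that has no replicate check. Against PBS distal in place of PBS local, the TGF-beta difference of Tgfbr2 was 0.21, the opposite sign.

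The carriers and the ligand stayed within narrow ranges or were too dim to read. Smad2 had signals of 432 in PBS local, 415 in PBS distal, 419 under IL-13, 442 under TSLP, and 397 and 383 in the TGF-beta mice. Both TGF-beta mice were the lowest arrays, a place that 7.36% of 7945 genes shared, but the whole range over the 6 arrays was 0.20 and the difference from PBS local -0.14 ± 0.15 (SE; adjusted p = 0.877, limma). Tgfb1 ran from 100 in distal skin to 159 in mouse 2, with 145 in PBS local, 155 under IL-13, 145 under TSLP and 133 in mouse 1. The TGF-beta mice lay on either side of PBS local. Smad3 had signals from 1.94 to 23.5, all far below the filter. Its level in skin could not be read from these probe sets, and its differences of up to 0.79 have no weight.

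Across the 4 comparisons with PBS local, the 10 genes had a median difference of 0.32 under TGF-beta, 0.16 under IL-13, 0.01 under TSLP and -0.03 in distal skin. These medians count Smad3 and Tgfb1, which were below the filter on all arrays. Over all 12393 genes the medians were -0.03, -0.05, -0.00 and -0.01. For the 6 genes above the filter on all arrays the TGF-beta median was 0.29, against -0.05 over 6684 such genes, with 4 of 6 positive against 41.2%. Their medians were 0.19 under IL-13, -0.00 under TSLP and -0.03 in distal skin, against -0.07, -0.01 and -0.01. These comparisons share the single PBS local array, so an error in it enters them all.

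Under IL-13, none of the 10 genes was 2-fold higher or lower, and 6 of the 10 were among the 7562 genes tested. Of those 7562 genes, 1.12% were 2-fold higher and 0.41% lower. Of the 6 bright genes, Skil and Tgfbr2 were highest on the IL-13 array, which 8.99% of 6684 such genes were. After quantile normalization IL-13 lay at -0.04 from PBS local for Tgfbr2, so that it was no longer highest there. Under TSLP none of the 10 was 2-fold apart either, with 6 of them tested, against 0.998% higher and 0.447% lower of 7614 genes. With 1 array each, these differences have no replicate check.

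Distal skin lay below all 5 outlet arrays for 4 of the 8 genes that reached the filter on any array, namely Tgfbr1, Tgfbr2, Smad6 and Skil, and above them for none. Smad6 reached the filter only on an outlet array, and among the 6 genes above it on all arrays the count was 3. After quantile normalization distal Tgfbr1 was 0.03 above PBS local and so no longer below all outlet arrays. Among 7945 genes, 24.9% lay below and 26.8% above all outlet arrays. Distal skin minus the lowest outlet array was -0.00 for Tgfbr1, -0.16 for Smad6, -0.19 for Tgfbr2 and -0.22 for Skil on the log2 scale. None of the 10 genes lay 2-fold outside the outlet range, as 1.7% of genes did below and 0.315% above it. Against PBS local, 0.788% of 7617 tested genes were 2-fold higher in distal skin and 3.51% 2-fold lower. Again none of the 10 was, of which 6 were tested there. Regenerating muscle markers summed to 446 in distal skin and to between 2414 and 5418 at the outlet, and endothelial markers to 1126 against 1755 to 3394. Their part in the distal values was not tested.

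The other genes of the pathway were read from 5 lists, and single genes are named for the size of their differences. Of the targets of TGF-beta or BMP signals, 15 were tested under TGF-beta and none was called by limma or 2-fold apart in both mice. Their median was 0.21 (0.24 in mouse 1 and 0.13 in mouse 2), with 11 positive and 4 negative, against -0.05 and 41.9% positive over all tested genes. Tagln, a smooth muscle and myofibroblast protein, had signals of 1085 in PBS local, 1014 in PBS distal, 1035 under IL-13, 1278 under TSLP, and 1723 and 2032 in the TGF-beta mice. Both TGF-beta mice were above the other 4 arrays, a place that 6.07% of 7945 genes held. The differences from PBS local were 0.65 and 0.89 (unadjusted p = 0.0138, adjusted p = 0.864, limma). Tagln had the largest difference of the list, so this unadjusted p comes from a picked gene. The fibronectin gene Fn1 was at 0.78 and 0.12 in the mice, the matricellular Ccn2 at 0.83 and -0.04, and Acta2 at 0.51 and 0.19. The 4 negative targets were Junb at -0.22, Cdkn1a at -0.11, Id1 at -0.07 and Tgfbi at -0.07, as means of the mice. In distal skin 12 of 15 targets were below PBS local, with a median of -0.17 and 3 above it, where 48.2% of all tested genes were above it. Under TSLP 6 of 15 were above PBS local, with a median of -0.16, against 48.7% of all tested genes, and under IL-13 9 of 14, with a median of 0.02, against 39.8%.

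Among the ligands and latency genes, 9 of 10 on the array were tested, with a TGF-beta median of -0.04. Ltbp2, a matrix protein of the latent TGF-beta binding family, had signals of 289 in PBS local, 221 in PBS distal, 609 under IL-13, 466 under TSLP, and 512 and 495 in the TGF-beta mice. All 4 cytokine arrays were above both PBS arrays. The difference from PBS local was 1.01 under IL-13, the only gene of the 5 lists past 2-fold there, 0.64 under TSLP and 0.77 and 0.73 in the TGF-beta mice (unadjusted p = 0.00777, adjusted p = 0.864, limma). Ltbp2 had the largest TGF-beta difference of its list, so this unadjusted p too comes from a picked gene. How many genes share its order of arrays was not counted. Ltbp4, which tethers latent TGF-beta to elastic fibres, was at -0.46 and -0.56 in the mice and -0.73 under IL-13. Thbs1, an activator of latent TGF-beta, was at 0.45 and -0.29 in the mice and at -1.54 in distal skin.

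The 6 tested receptors of the wider family had a TGF-beta median of 0.02, from -0.18 for the endothelial coreceptor Eng to 0.24 for the BMP receptor Bmpr1a, with Acvr1 at 0.20. Of the 9 tested SMADs and intracellular regulators, 7 were positive, with a median of 0.07, but the medians of the mice had opposite signs, -0.04 in mouse 1 and 0.12 in mouse 2. Over all tested genes 41.9% were positive. Among these were the common partner Smad4 at 0.25, the corepressor Ski at 0.25 and Fkbp1a, which holds type I receptors inactive, at 0.27. Pmepa1, a TGF-beta-induced inhibitor of SMAD2 and SMAD3, was at 0.02 under TGF-beta, 0.24 under IL-13, -0.59 under TSLP and -1.08 in distal skin. The 4 tested extracellular antagonists had a TGF-beta median of 0.07, and here too the mice differed in sign, with medians of 0.27 in mouse 1 and -0.13 in mouse 2. The proteoglycan Bgn was at 0.29 under TGF-beta and at -1.57 in distal skin. The activin antagonist Fst was at -0.22.

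**Figure D4:**
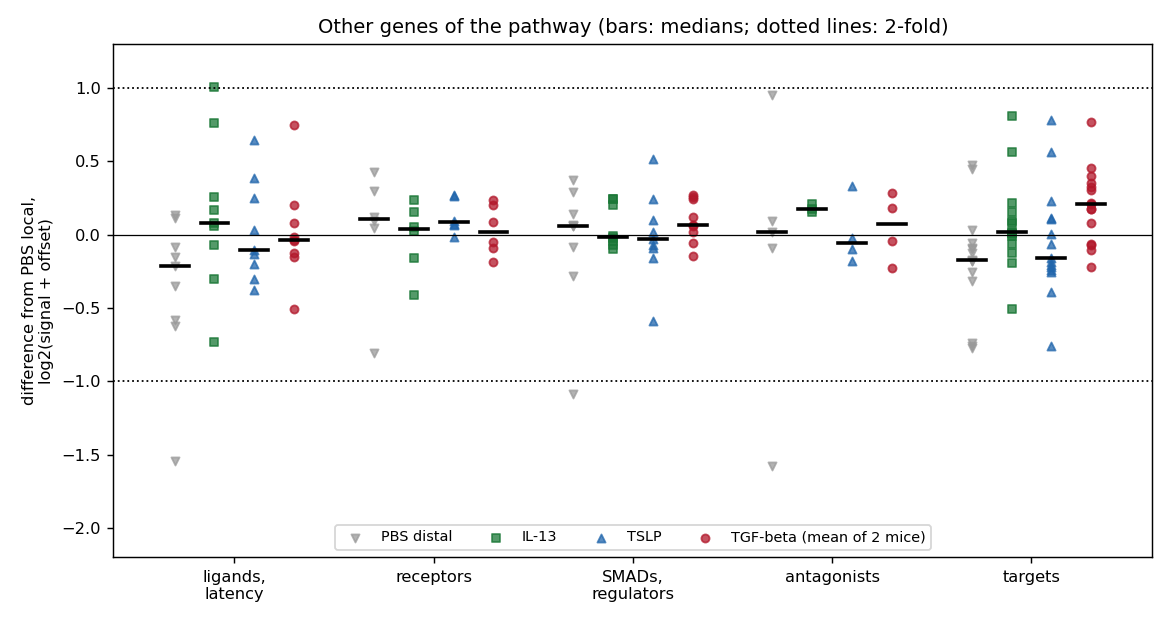
Difference from PBS local on the scale log2(signal + 27.4) (y axis) for tested genes of 5 pathway lists (x axis), 1 point a gene, with bars at the medians and dotted lines at 2-fold. The targets have a median of 0.21 under TGF-beta and -0.17 in distal skin, and 3 distal points (Thbs1, Pmepa1 and Bgn) lie below the lower line.

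The genes whose log2 values followed those of Bambi most closely over the 6 arrays, among 7356 with a median signal at or above the filter, were Med30 (Pearson's r = 0.985), Pold1 (0.983), Igfbp4 (0.980), Snrpc (0.971) and Psmd10 (0.969). They were picked for the highest values of r, and 62 genes had an r over 0.9. Pold1, the catalytic subunit of DNA polymerase delta, had a signal of 583 in mouse 2 against 227 to 333 on the other arrays. Igfbp4, a binding protein of insulin-like growth factors, had one of 4623 against 2469 to 3225. For both, as for Bambi, mouse 2 was the highest array and mouse 1 the next. The choice by r favours this order, so it is no separate result. Med30 ran only from 852 to 1032, Psmd10 from 415 to 508 and Snrpc from 1016 to 1435.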

How the data were processed

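The authors deposited an intensity on a linear scale for each probe set of each array. The submitters' processing notes name MAS5, without a version. Their trimmed means (2% off each end) lay between 500.16 and 500.2, so the arrays had already been scaled, and they were set to the mean of these. Of the 22690 probe sets, 64 are controls, 691 name several genes and 1555 are unnamed here. Symbols of 20351 were updated by gene number through a RefSeq table of GRCm38.p6. The build behind the array's annotation was not used.

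The 25th percentile of the whole table gave the offset, 27.4. The brightest probe set by mean log2 value stood for a gene. A gene was tested if at least 1 compared array reached the filter. limma 3.58.1 under R 4.3.3 (lmFit, eBayes with an intensity trend) fitted all 6 arrays in 5 groups, and p-values were adjusted over all tested genes by Benjamini-Hochberg at 0.05. Only the TGF-beta pair informs the variance (1 residual degree of freedom, beside 3.13 from the prior), and each single array is assumed to vary like that pair. A size rule of 1 on the log2 scale (2-fold) stood beside it. The number of arrays limits every precision.

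The 10 genes and the lists were chosen with earlier results of these data known. List genes are named if they passed the size rule in any comparison, with at most 4 others a list by the size of their TGF-beta difference. The genes like Bambi are the 5 with the highest r. Alternatives were a lower and a higher offset (the median, 165), a floor, quantile normalization, the filter, the mean of probe sets, the trend, each TGF-beta mouse left out and PBS distal as the control.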

Additional observations from a re-analysis of the deposited data

How the results depend on the processing

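No paired analysis was made. Only the PBS pieces could form a pair, and the labels do not say whether they came from 1 animal. Only the TGF-beta group has more than 1 array. Limma called 0 genes for TGF-beta under 8 alternatives and 4 with PBS distal as the control, none of them among the 10 genes, whose smallest adjusted p was then 0.225. With the variance of the TGF-beta pair none of the 10 was called under IL-13 or TSLP or in distal skin by 8 alternatives, a check chosen after seeing the data. Few genes of the whole table were called in these comparisons either, so the lack of a call is no result about the 10. Genes at least 2-fold apart in both TGF-beta mice numbered 26, and 45 at the lower offset, 7 at an offset of 165, 40 with a floor and 14 with every compared array above the filter. They numbered 74 without mouse 2 and 255 without mouse 1, where 1 mouse alone decides. For IL-13 the 116 genes became 60 at the higher offset, 176 without the filter and 65 with every array above it. The 110 under TSLP became 60 at the higher offset. The 327 in distal skin became 168 at the higher offset and 175 with every array above the filter, and the 160 outside the outlet range became 70 and 76.

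Bambi was 2-fold higher in both mice in the main setting, with the lower offset, with a floor, after quantile normalization, with the mean of probe sets, without the filter and without the trend, but not at the higher offset or against PBS distal. With both mice kept, its mean difference from PBS local ran from 1.07 to 2.02, that of Smad6 from 0.43 to 0.89, of Smad7 from 0.26 to 0.46 and of Skil from 0.13 to 0.37. Leaving out a mouse moved some of them further. Mouse 1 alone and mouse 2 alone gave 1.07 and 2.41 for Bambi and 0.22 and 1.29 for Smad6. They gave 0.13 and 0.69 for Smad7 and 0.33 and 0.34 for Skil. At the lower offset Smad3, dim everywhere, also passed 2-fold, while with a floor at the offset its difference was 0. With every compared array above the filter Bambi was not tested.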
